A study of Mus musculus with 44 samples.

Results

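Oxidative phosphorylation is carried out by 5 protein complexes of the inner mitochondrial membrane, and the nuclear genes that encode them were followed here across chromatin and RNA of the mouse brain. Members were the protein-coding autosomal genes whose symbols start with Nduf, Uqcr, Atp5 or Cox4 to Cox8, together with Sdha, Sdhb, Sdhc and Sdhd. The rule used names only and gave 93 genes of 20665 protein-coding autosomal genes. By symbol, 47 belonged to complex I, of which 7 were core subunits, 32 accessory subunits and 8 assembly factors. Complex II held 4 genes, complex III 8, complex IV 17 and complex V 17. Ndufa4 is counted under complex I by its symbol, although it is known as a subunit of cytochrome c oxidase. The 3 X-linked genes Ndufb11, Ndufa1 and Cox7b were left out by the rule. A row in the RNA table was found for 92 members, and Ndufb4b had none.

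The study compared adult mice carrying Polg(D181A), a mutant form of the enzyme that copies mitochondrial DNA, with wild-type (WT) adults. The RNA libraries, 5 groups of 4, were made from the thalamic paraventricular nucleus (PVT). There were 4 mutant groups: euthymic with positive cytochrome c oxidase (COX) staining (Polg eu COX+), euthymic COX-negative (Polg eu COX-), depressive COX-positive (Polg dep COX+) and depressive COX-negative (Polg dep COX-). The fifth was WT, euthymic and COX-positive (WT eu COX+). ATAC-seq, which reads open chromatin, was done in PVT, and ChIP-seq of the active-chromatin mark H3K27ac (acetylated lysine on histone H3) in PVT, in cortex (COR), in the caudate putamen (CP) and in the nucleus accumbens (NAC). Each of these 5 tables held 2 Polg and 2 WT libraries from nuclei sorted on NeuN, a neuronal nuclear protein. All RNA and H3K27ac mice were labelled C57BL/6, while the 4 ATAC libraries were each labelled with a different number (C57BL/9 and C57BL/10 in Polg, C57BL/7 and C57BL/8 in WT). From background knowledge and not from the labels, the transgene of this line is driven in forebrain neurons by the Camk2a promoter, and the animals keep their own Polg. Nothing in the labels ties the libraries of a group to different mice, and the p-values therefore cover library spread alone, which may be technical.

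Complex I (NADH dehydrogenase) and complex II (succinate dehydrogenase) feed electrons into the chain. Complex III (the cytochrome bc1 complex) and complex IV (COX) pass them on to oxygen, and complex V (ATP synthase) uses the resulting proton gradient to make ATP. All complexes except II combine nuclear subunits with subunits encoded by mitochondrial DNA, the molecule that a faulty Polg can damage. COX staining reads complex IV activity, so a COX-negative neuron is one in which that activity was not seen. Promoters of many nuclear members are known to bind NRF1, YY1, ERR and ETS factors, which coordinate respiratory genes.

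Promoter sequences are shown for Ndufa11, Ndufs4 and Atp5j2, which passed a test below, and for examples from complexes II, III and IV, because their letters match factors known to act on respiratory genes. RefSeq windows of 300 bases (250 before and 50 after the gene start, build GRCm38.p6) were matched for 75 members through 80 promoters. Capitals mark exact matches, on either strand, to GCGCATGCG (NRF1), AAGATGGCG (YY1), TCAAGGTCA (ERR) or CCGGAAGT (ETS). The first 3 hold an NRF1 match that reads the same on both strands, the next pair a YY1 match, and the last pair an ERR and an ETS match.
Ndufa11 (complex I accessory subunit, chr17:56717512-56717811, plus strand): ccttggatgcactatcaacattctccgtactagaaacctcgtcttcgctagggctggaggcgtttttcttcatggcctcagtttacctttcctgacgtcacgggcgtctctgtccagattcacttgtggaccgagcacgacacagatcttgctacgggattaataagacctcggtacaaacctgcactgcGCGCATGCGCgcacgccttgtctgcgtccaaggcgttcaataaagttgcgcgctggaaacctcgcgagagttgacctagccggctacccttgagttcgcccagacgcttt
Uqcrc1 (complex III core protein, chr9:108936398-108936697, plus strand): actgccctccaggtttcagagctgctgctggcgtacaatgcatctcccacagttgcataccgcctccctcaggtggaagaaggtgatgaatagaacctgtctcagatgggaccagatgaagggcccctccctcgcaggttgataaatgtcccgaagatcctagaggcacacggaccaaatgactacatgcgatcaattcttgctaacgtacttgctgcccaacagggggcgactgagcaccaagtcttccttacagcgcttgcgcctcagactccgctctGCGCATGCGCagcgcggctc
Cox6a1 (complex IV subunit, chr5:115348909-115349208, minus strand): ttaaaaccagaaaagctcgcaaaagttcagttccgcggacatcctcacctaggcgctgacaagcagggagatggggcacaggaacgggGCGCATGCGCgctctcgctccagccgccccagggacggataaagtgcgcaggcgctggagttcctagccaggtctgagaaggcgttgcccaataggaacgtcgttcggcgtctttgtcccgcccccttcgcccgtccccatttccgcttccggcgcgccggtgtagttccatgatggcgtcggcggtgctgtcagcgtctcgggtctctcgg
Ndufs4 (complex I accessory subunit, chr13:114388045-114388344, minus strand): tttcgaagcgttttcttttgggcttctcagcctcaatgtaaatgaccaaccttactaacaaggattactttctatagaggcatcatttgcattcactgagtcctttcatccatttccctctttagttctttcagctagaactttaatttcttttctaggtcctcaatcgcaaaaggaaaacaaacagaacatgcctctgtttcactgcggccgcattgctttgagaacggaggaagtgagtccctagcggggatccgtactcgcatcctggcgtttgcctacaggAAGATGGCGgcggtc
Atp5j2 (complex V subunit, chr5:145191492-145191791, minus strand): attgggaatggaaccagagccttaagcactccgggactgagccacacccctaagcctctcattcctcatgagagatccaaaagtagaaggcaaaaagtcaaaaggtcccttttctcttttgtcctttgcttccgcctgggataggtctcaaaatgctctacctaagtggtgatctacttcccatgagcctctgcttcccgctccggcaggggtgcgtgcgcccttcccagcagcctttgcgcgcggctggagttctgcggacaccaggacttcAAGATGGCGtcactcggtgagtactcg
Sdhd (complex II membrane anchor, chr9:50603800-50604099, minus strand): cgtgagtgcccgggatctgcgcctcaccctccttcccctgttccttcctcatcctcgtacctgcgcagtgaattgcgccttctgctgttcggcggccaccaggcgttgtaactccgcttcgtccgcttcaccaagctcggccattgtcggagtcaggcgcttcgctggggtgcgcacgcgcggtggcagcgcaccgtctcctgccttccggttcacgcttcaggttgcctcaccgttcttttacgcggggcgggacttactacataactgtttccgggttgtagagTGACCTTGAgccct
Cox8a (complex IV subunit, chr19:7217567-7217866, minus strand): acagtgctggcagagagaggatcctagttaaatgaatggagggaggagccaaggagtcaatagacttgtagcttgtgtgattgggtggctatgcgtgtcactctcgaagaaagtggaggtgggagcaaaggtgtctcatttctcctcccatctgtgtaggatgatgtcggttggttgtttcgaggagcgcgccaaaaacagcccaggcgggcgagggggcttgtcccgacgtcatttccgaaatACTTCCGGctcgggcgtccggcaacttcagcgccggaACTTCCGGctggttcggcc

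An NRF1 match was present in 10 of the 75 members (13.3%), against 2.66% of 16457 protein-coding autosomal genes with a promoter in the same table and 3.95% of the 9973 of these with an ATAC peak at a gene end. The 10 were Ndufa11, Ndufa8, Ndufaf4, Ndufaf5, Uqcr11, Uqcrc1, Cox6a1, Atp5g2, Atp5k and Atp5l, in every complex except II. A YY1 match was present in 8 members (10.7%), against 2.14% of all promoters and 3.24% of those with an ATAC peak. The 8 were 6 complex I genes (Ndufa9, Ndufaf8, Ndufc1, Ndufs4, Ndufs6 and Ndufs7) and a pair of complex V genes, Atp5j and Atp5j2. ERR matches were in Sdhd and Atp5g3 (2.67% against 0.383% of all and 0.311% of those with an ATAC peak). ETS letters were in 5 members (6.67% against 5.84% of all and 8.58% of those with an ATAC peak), Ndufs3, Uqcr11, Uqcrh, Cox8a and Atp5h. The letters GGGGCGGGG (SP) were in 16% of members against 17.8% of all and 24.6% of those with an ATAC peak, and CCAAT in 42.7% against 42.3% and 42.6%. Median GC content was 58.5% in the members' windows and 57% in all windows. Of the 80 windows, 74 overlapped an ATAC peak. The Ndufa11 window above did not, its peak lying 472 bases from the gene.

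Members had open chromatin at a gene end more often than the average gene. A peak within 1 kb of either gene end (mm10), called a gene-end peak here, was found in the PVT ATAC table for 85 of 93 members (91.4%), against 60.4% of all protein-coding autosomal genes. H3K27ac gene-end peaks were found for 76 members in PVT (81.7% against 56.5%), 69 in COR (74.2% against 53.8%), 54 in CP (58.1% against 42.1%) and 60 in NAC (64.5% against 51.6%). Among genes that were open in the PVT ATAC table the gap was small. There, 84.7% of members and 80.8% of all genes carried H3K27ac in PVT, and the shares were 77.6% and 74.6% in COR, 60.0% and 58.9% in CP and 68.2% and 73.0% in NAC. These shares are descriptions, and each H3K27ac table has its own peak set and depth, so a lower share in CP or NAC is not a difference between regions.

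**Figure D1:**
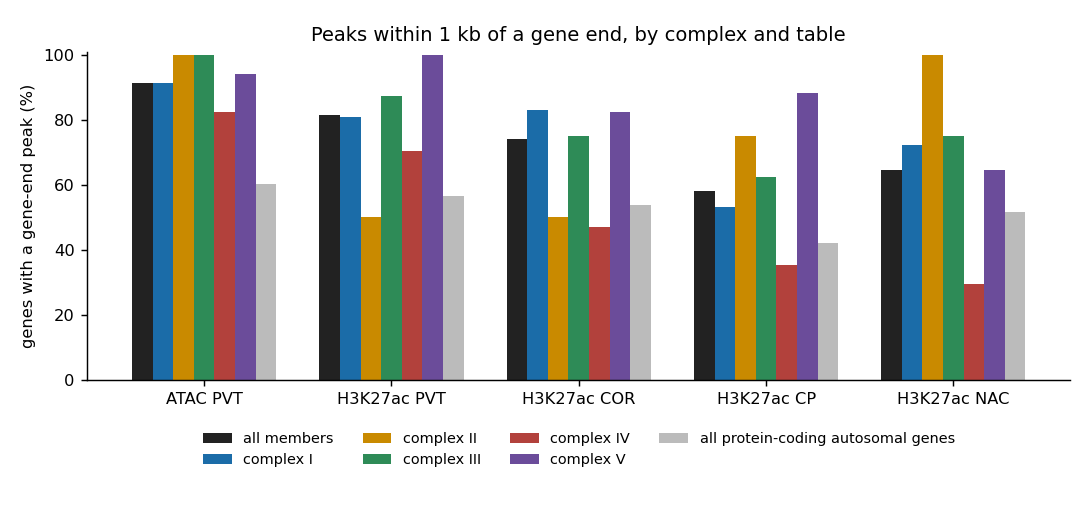
Share of genes (%, y axis) with a peak within 1 kb of a gene end in each chromatin table (x axis), for all 93 members, each complex and all 20665 protein-coding autosomal genes. The members' bar stands above the bar of all genes in every table, and the complex IV bar is the lowest of the complexes in CP and NAC at 35.3% and 29.4%.

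The complexes differed in which tables held their peaks. All 4 complex II and all 8 complex III genes had an ATAC gene-end peak, with 43 of 47 in complex I, 14 of 17 in complex IV and 16 of 17 in complex V. H3K27ac in PVT covered all 17 complex V genes, 38 of complex I, 7 of complex III, 12 of complex IV and 2 of complex II. In COR the counts were 39, 2, 6, 8 and 14 for complexes I to V, in CP 25, 3, 5, 6 and 15, and in NAC 34, 4, 6, 5 and 11. A gene-end peak in all 4 H3K27ac tables was found for 27 members (29.0%), against 23.6% of all genes, and 26 of these were also open in ATAC. Only Atp5d, the delta subunit of ATP synthase, had H3K27ac in all 4 regions with no ATAC gene-end peak.

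The members outside those 26 lacked a gene-end peak in at least 1 table. Ndufb4b and Cox7a2 had no gene-end peak in any table, and Cox7b2 and Ndufb4c had one in CP alone. Cox8b had one in PVT H3K27ac alone. Ndufa4l2 had H3K27ac gene-end peaks in PVT, COR and NAC with no ATAC gene-end peak. Within its span lay 2 ATAC peaks and, in CP, 3 H3K27ac peaks. Cox5a had an ATAC gene-end peak and no H3K27ac gene-end peak in any region, and Ndufa6 and Cox6b2 added NAC alone. Only gene-end peaks are counted in this list. Within its span, Cox5a held 2 H3K27ac peaks in PVT, 1 in COR, 1 in CP and 2 in NAC. Sdhd and Uqcrb were open and marked in CP and NAC only, and Ndufa3 and Cox6b1 in COR only. Ndufaf4 and Ndufb10 were open and marked in COR and NAC, Ndufa4 in COR and CP, and Ndufaf8, Ndufb2 and Sdha in all regions but PVT. Ndufaf1, Cox4i2, Cox6a1, Cox6a2 and Cox8c were open and marked in PVT alone. Ndufa9 and Sdhb added NAC to PVT, Atp5mpl added CP, and Ndufa8, Ndufb8, Ndufc1, Cox7a1 and Atp5md added COR. Ndufa5, Ndufs1, Ndufs5, Uqcr10, Atp5g3 and Atp5k lacked COR alone. The 15 genes that lacked CP alone were Ndufa2, Ndufa7, Ndufa10, Ndufa11, Ndufa13, Ndufab1, Ndufaf2, Ndufaf6, Ndufaf7, Ndufc2, Uqcrc1, Uqcrh, Uqcrq, Cox8a and Atp5a1. The 12 that lacked NAC alone were Ndufa12, Ndufs7, Ndufv1, Ndufv2, Uqcr11, Uqcrc2, Cox4i1, Cox5b, Atp5e, Atp5g1, Atp5h and Atp5o. Of the 95 ATAC gene-end peaks of members, 44 also lay within 1 kb of another gene, so their counts cannot be given to the member alone. The same held for 42 of 109 peaks in PVT H3K27ac, 41 of 85 in COR, 29 of 66 in CP and 40 of 78 in NAC.

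Depth differed between tables. Levels below are in CPM, counts scaled to the size of the library. Total counts per library ranged from 26719334 to 115285349 for RNA and from 2932270 to 8040451 for ATAC. For H3K27ac they ranged from 52759552 to 146450422 in PVT, 52566179 to 197650530 in COR, 12048787 to 101443484 in CP and 6415127 to 80516545 in NAC. All 5 PVT and thalamus markers had an ATAC gene-end peak and 4 had H3K27ac in PVT, against 1 in each other region. Neuronal markers had peaks for 8 of 8 genes in every table but CP (7 of 8), and markers of other cells also had ATAC peaks, 3 of 6 for astrocytes, 3 of 6 for oligodendrocytes, 3 of 4 for endothelium, 1 of 6 for microglia, 5 of 6 for striatal projection neurons and 0 of 5 for cortical projection neurons. In PVT H3K27ac the counts for these 6 cell types were 4, 3, 1, 0, 5 and 1, and their part in the results was not tested. Polg itself had 0.559 to 200 CPM in Polg eu COX+, 7.75 to 140 in Polg eu COX-, 7.32 to 103 in Polg dep COX+, 0.861 to 197 in Polg dep COX- and 0.946 to 3.69 in WT eu COX+. Thus the COX- euthymic and the COX+ depressive groups lay above WT, and the other 2 mutant groups overlapped it. The 37 mitochondrially encoded genes, among them those of the remaining subunits, held 0 counts in every RNA library, so nuclear and mitochondrial subunits could not be compared.

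Accessibility in PVT was highest at complex V and complex II genes and lowest at complex IV genes. Levels are CPM per kb of gene-end peak after TMM scaling (edgeR's trimmed mean of M values). The median member stood at percentile 64.7 of the WT mean among all 12475 genes with an ATAC gene-end peak. By complex the median percentile was 64.7 for I, 83.8 for II, 59.4 for III, 39.0 for IV and 80.5 for V. The members' median was 60.2 and 53.8 CPM per kb in the Polg libraries and 61.1 and 54.5 in the WT libraries. Over all genes it was 43.8 and 43.9 in Polg and 45.6 and 44.6 in WT. Members' ranks were stable between libraries, with rank correlations of 0.830 to 0.849 within a genotype and 0.808 to 0.862 between genotypes over 85 members.

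**Figure D2:**
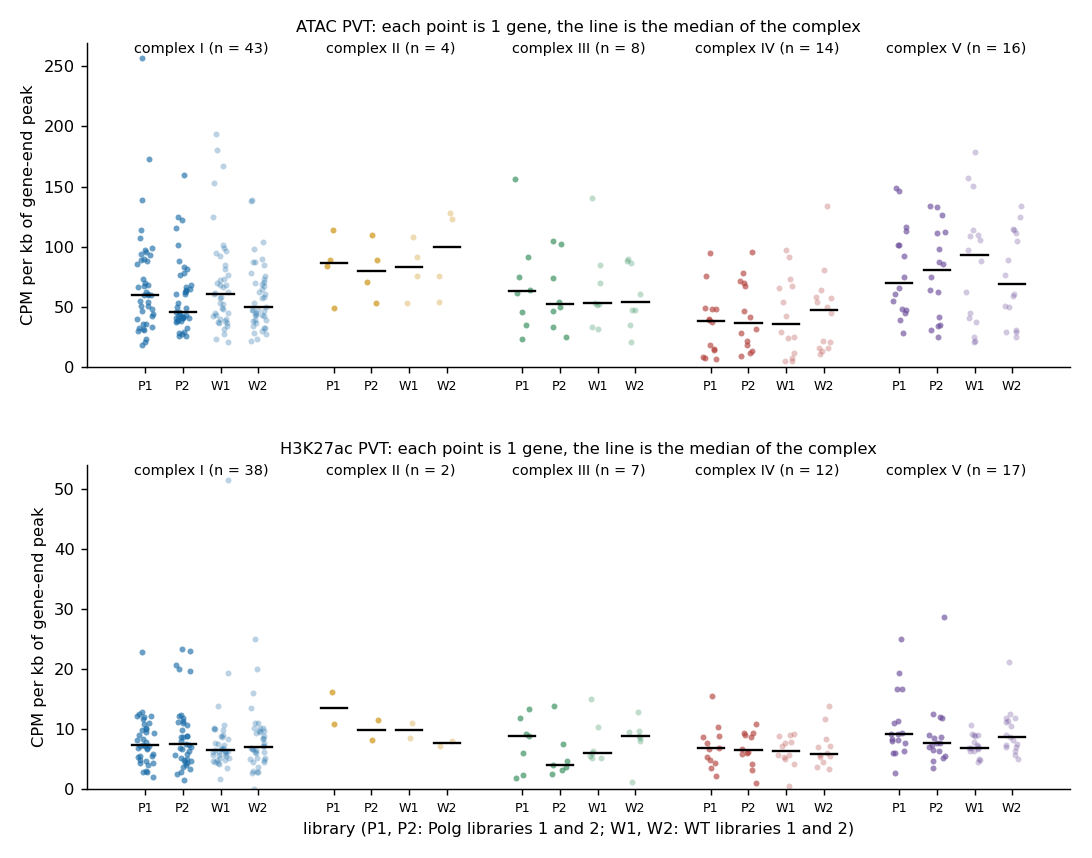
CPM per kb of gene-end peak (y axis) of every member with such a peak, by complex and library (x axis, P1 and P2 Polg, W1 and W2 WT), for PVT ATAC above and PVT H3K27ac below, with a line at each median. In ATAC the complex IV medians lie below those of the other complexes in all 4 libraries, and the genotypes overlap throughout.

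In complex IV, the more restricted isoform stood below its ubiquitous partner in the Cox8, Cox6a, Cox4i and Cox6b pairs. In Cox7a the restricted Cox7a1 had an ATAC gene-end peak and the ubiquitous Cox7a2 had none. Within the span of Cox7a2 lay 1 ATAC peak away from its ends, so the levels of this pair could not be compared. Cox8a, the ubiquitous isoform, had 75.9 and 96.1 CPM per kb in Polg and 91.9 and 134 in WT, whereas Cox8c, a testis isoform, had 6.61 and 9.41 in Polg and 5.0 and 13.6 in WT. Cox6a1, the ubiquitous liver-type isoform, had 48.8 and 78.8 in Polg and 73.5 and 80.6 in WT. Cox6a2, the heart and muscle isoform, had 14.6 and 13.8 in Polg and 24.3 and 20.9 in WT. In both pairs the ubiquitous gene stood above its partner in all 4 libraries. Cox4i1, the common form of subunit 4, had 95.3 and 46.9 in Polg and 54.5 and 50.1 in WT. Cox4i2, its lung-enriched and oxygen-responsive form, had 7.65 and 21.9 in Polg and 25.6 and 21.9 in WT. Cox6b1, the somatic form, had 40.2 and 41.9 in Polg and 42.7 and 57.6 in WT, and Cox6b2, the testis form, had 8.34 and 12.1 in Polg and 8.07 and 16.5 in WT. Cox7a1, the heart and muscle isoform, had 39.3 and 18.3 in Polg and 5.04 and 44.9 in WT, so its libraries differed more within than between genotypes. Cox7a2l, which takes part in supercomplex assembly, had 37.8 and 72.1 in Polg and 66.1 and 64.5 in WT. The spread of each gene between its 2 libraries was often as large as any gap between genotypes.

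In complex II, Sdhb, the iron-sulfur subunit, was highest in every library but the second WT one, where Sdha stood above it. Sdhb had 114 and 110.3 CPM per kb in Polg and 108 and 123 in WT. Sdha, the flavoprotein subunit, had 89.1 and 89 in Polg and 91.4 and 128 in WT. The membrane anchors followed, Sdhd with 84.2 and 70.9 in Polg and 75.8 and 76.1 in WT, and Sdhc with 49.0 and 53.8 in Polg and 53.8 and 54.2 in WT. Sdhc was thus the lowest of the 4 in every library. In complex V, Atp5b, the catalytic beta subunit, had 146 and 111 in Polg and 179 and 115 in WT. The 3 genes for the identical c subunit of the rotor ring differed, Atp5g1 with 149 and 98.3 in Polg and 150.4 and 125 in WT, Atp5g2 with 117 and 133 in Polg and 158 and 105 in WT, and Atp5g3 with 48.9 and 35.2 in Polg and 40.8 and 29.1 in WT. Atp5g3 was the lowest of the 3 in every library. In complex I the highest WT mean belonged to Ndufa11 (159 ± 30.1 CPM per kb, SD, n = 2, against 148 ± 35.6 in Polg), an accessory subunit of the membrane arm, and the lowest to Ndufb10 (22.2 CPM per kb). Complex III ran up to Uqcrq at 115 and down to Uqcrb at 33.7 CPM per kb in the WT mean.

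H3K27ac in PVT set the members less apart. The median percentile of the WT mean was 53.7 for the 76 members with a peak, and 50.7, 69.9, 53.0, 31.6 and 64.6 for complexes I to V. Complex IV was again lowest in the WT mean, but not in every library. Complex III had a lower median percentile in Polg library 2 (17.8 against 43.4) and WT library 1 (38.6 against 43.1). The 2 measures ranked the members differently, with a rank correlation of 0.074 over the 72 members that had both peaks. Ndufa11, with the highest ATAC level of complex I, had the lowest H3K27ac level, 2.04 and 2.84 CPM per kb in Polg and 1.79 and 2.96 in WT. Its ATAC gene-end peak lay outside the gene, and 2 PVT H3K27ac peaks lay within its span. The 2 levels of Ndufa11 need therefore not be of the same element. Ndufs1, the largest core subunit, had 22.8 and 23.3 in Polg and 19.4 and 25 in WT. Sdhb had 10.9 and 11.5 in Polg and 8.54 and 7.27 in WT, and Sdhc had 16.1 and 8.22 in Polg and 11.1 and 8.05 in WT. Rank correlations between PVT H3K27ac libraries of a genotype were 0.303 and 0.551 over the members. They were -0.022 and 0.108 in COR, -0.208 and 0.021 in CP and -0.020 and 0.393 in NAC, so single members' levels in those 3 tables were not repeatable between libraries and are not ranked here.

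No member peak in PVT passed the test between genotypes. In ATAC, edgeR's quasi-likelihood test with Benjamini-Hochberg adjustment called 0 of 95 member peaks at an adjusted p under 0.05, where it called 1 of all 87600 peaks (0.00114%). At an unadjusted p under 0.05 there were 3 member peaks (3.16%, against 6.13% of all peaks), and DESeq2 called 0 (0.00334% of all peaks). Both Polg libraries lay above both WT libraries for 12 of the 95 peaks and below for 17, against 20% and 20.8% of all peaks. The median log2 fold change, Polg over WT, was -0.07 for members and -0.00 for all peaks. The median standard error was 0.37 on the log2 scale, and 1 of the 95 peaks had an estimate beyond 1 in either direction. This was the tightest of the 5 chromatin tables.

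Each complex's smallest p in ATAC belonged to Ndufs7, Sdha, Uqcrq, Cox6a2 and Atp5h. Ndufs7, a core subunit of the electron-transfer arm, had 10.6 and 9.76 CPM in its peak in Polg and 23.0 and 15.6 in WT, with a log2 fold change of -0.94 ± 0.41 (SE) and an adjusted p of 0.798. Uqcrq had 9.30 and 9.21 in Polg and 19.4 and 14.8 in WT (-0.90 ± 0.42), and Atp5h 24.8 and 41.6 in Polg and 20.6 and 19.6 in WT (0.73 ± 0.35), both also at 0.798. The 2 groups did not overlap in any of these, yet none passed. Cox6a2 had -0.68 ± 0.49 (adjusted p 0.804) and Sdha -0.29 ± 0.32 (adjusted p 0.851).

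In PVT H3K27ac the same test called 0 of 108 member peaks and 0 of 121536 peaks in all (0.0%), with 1 member peak at an unadjusted p under 0.05 (0.926% of members, against 8.09% of all peaks). DESeq2 called 4 member peaks, where it called 10.7% of all peaks. Both Polg libraries lay above both WT libraries for 29 member peaks and below for 26, against 22.6% and 24.1% of all peaks. The members' median log2 fold change was 0.06, against -0.00 for all peaks, with a median SE of 0.51. Ndufaf6, an assembly factor, had 20.5 and 44.9 CPM in Polg and 14.4 and 15.5 in WT, a log2 fold change of 1.13 ± 0.43 with an adjusted p of 0.573 in edgeR and 0.0403 in DESeq2. Cox4i2 had 21.1 and 21.7 in Polg and 13.0 and 14.5 in WT (0.64 ± 0.32, adjusted p 0.772). Atp5b had 14.1 and 17 in Polg and 18.2 and 43.0 in WT (-0.97 ± 0.46, adjusted p 0.748). The smallest p of complexes II and III were those of Sdhc (2.65 ± 1.72, adjusted p 0.883) and Uqcr11 (-1.11 ± 0.61, adjusted p 0.830).

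**Figure D3:**
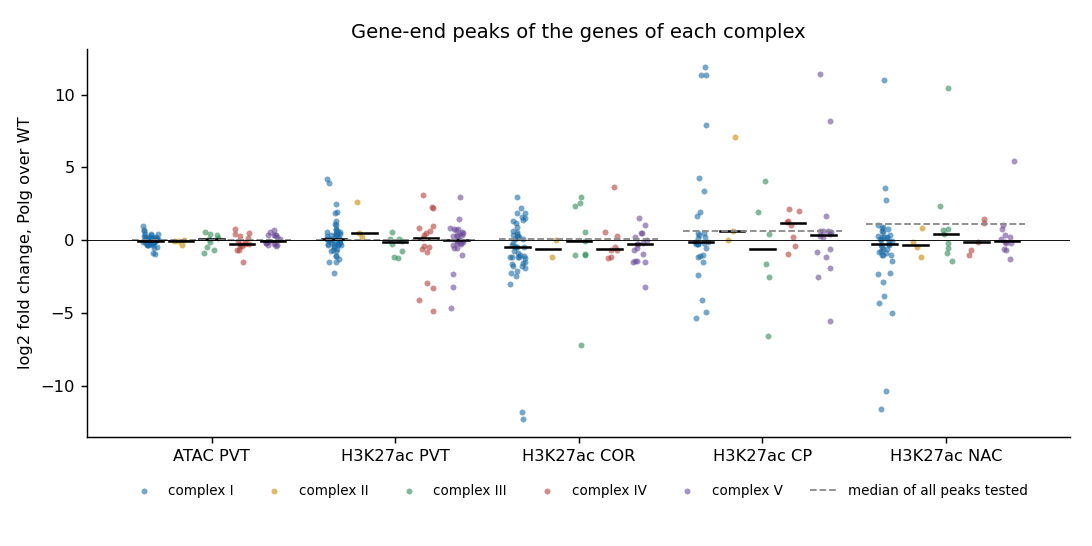
Log2 fold change of each member's gene-end peaks, Polg over WT (y axis), by chromatin table (x axis) and complex (colour), with a line at each complex's median and a dashed line at the median of all peaks tested. ATAC values lie between -1.48 and 0.99, while the H3K27ac values spread up to -12.27 and 11.91. Each complex has values on both sides of 0 in each table, except complex II in PVT and CP H3K27ac, where all 3 peaks lie above 0.

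In the other 3 regions no member passed either, and the spread was far larger. In COR, edgeR called 0 of 82 member peaks and 0 of 123573 in all (0.0%), with 3 members at an unadjusted p under 0.05 (3.66%, against 9.29% of all peaks). DESeq2 called 8, 1 higher and 7 lower, where it called 26.7% of all peaks, 13.6% higher and 13.1% lower. Members' median log2 fold change was -0.47, against 0.10 for all peaks, and both Polg libraries lay below both WT libraries for 24 of 82 member peaks and above for 8, against 19.7% below and 24.8% above over all peaks. Ndufaf3, an assembly factor, had 9.28 and 3.86 CPM in Polg and 31.9 and 71.0 in WT, a log2 fold change of -2.97 ± 0.83 with an adjusted p of 0.535 in edgeR and 0.000201 in DESeq2. Its peak also lies within 1 kb of Dalrd3 and Impdh2. Uqcr11 had the smallest p of complex III (-7.19 ± 3.56, adjusted p 0.570), Atp5e that of complex V (-1.42 ± 0.81, 0.727), Cox7a1 that of complex IV (-1.16 ± 1.15, 0.9998) and Sdha that of complex II (-1.18 ± 3.09, 0.9998).

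In CP, 0 of 62 member peaks and 0 of 79535 peaks were called by edgeR (0.0%), with 0 members at an unadjusted p under 0.05 (0.0% of members, against 6.69% of all peaks). DESeq2 called 11 members, 7 higher and 4 lower, where it called 33.4% of all peaks, 21.0% higher and 12.3% lower. Both Polg libraries lay above both WT libraries for 12 of the 62 member peaks and below for 4, against 32.3% and 11.2% of all peaks. A library at 0 counts was present for 66.1% of member peaks and 85.6% of all peaks. Ndufv1, the NADH-binding core subunit, had 12.9 and 11.2 CPM in Polg and 0 in both WT libraries, with an adjusted p of 0.373 in edgeR and 0.000568 in DESeq2. In NAC, 0 of 70 member peaks were called, where edgeR called 5 of 105058 (0.00476%), with 2 members at an unadjusted p under 0.05 (2.86%, against 1.60% of all peaks). DESeq2 called 2 members, where it called 3.0% of all peaks. Both Polg libraries lay above both WT libraries for 8 of the 70 member peaks and below for 15, against 28.5% and 10.2% of all peaks. Ndufaf8, an assembly factor, had 0.300 and 4.98 CPM in Polg and 26.7 and 48.4 in WT (-3.83 ± 1.61, adjusted p 0.998). The medians over members and over all peaks were 0.25 and 0.66 in CP and -0.13 and 1.09 in NAC, and median SEs were 3.99 and 2.04. The second WT library had the lowest depth of its table in CP (12048787 counts) and NAC (6415127), and in CP 23 of 54 members were at 0 in it. Without it, edgeR called 0 of 65 members and 80 of 126661 peaks in CP, and 0 of 78 members and 0 of 132732 peaks in NAC.

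RNA of the members was sparse and uneven. Their summed counts were 135 to 2140 CPM of total counts (median 770) per library, against 4571 if each protein-coding autosomal gene took an equal share. Between 2 and 29 of the 92 members had 0 counts in a library. The highest single member held 12.3% to 59.9% of a library's member counts. Per kb of gene span, the median member stood at percentile 29.4 to 49.0 of protein-coding autosomal genes. The median CPM of a member followed the length of its gene, with a rank correlation of 0.832 over 92 members, against 0.908 over 20127 protein-coding autosomal genes, and it followed ATAC level hardly at all (0.026 over 85). The median span was 7.44 kb for members and 17.9 kb for all these genes. Points share libraries. Whether exons alone or introns too were counted is not given in the sources used here.

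The highest median belonged to a short gene, and the next highest to long genes. Atp5o, a stalk subunit of ATP synthase with a median of 74.0 CPM, spans 6.41 kb, below the members' median span of 7.44 kb. After Atp5o came Ndufaf2 (26.4 CPM, 106 kb), Cox7b2 (12.6 CPM, 105 kb) and Ndufs4 (7.86 CPM, 100.3 kb). Cox7b2 is known as a testis isoform and had no ATAC gene-end peak, yet its RNA had counts in all 20 libraries. By contrast Cox7c, a ubiquitous COX subunit on a short gene, had 0 counts in 10 of 20 libraries, and Cox6a1 had at most 1.06 CPM. Libraries of a group were no more alike over the members than libraries of different groups, with a median rank correlation of 0.567 over 30 pairs within groups and 0.584 over 160 pairs between groups. Genes with near-identical copies, such as Ndufb4 with Ndufb4b and Ndufb4c, are uncertain, since the handling of multiply mapped reads is not given in the sources used here.

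**Figure D4:**
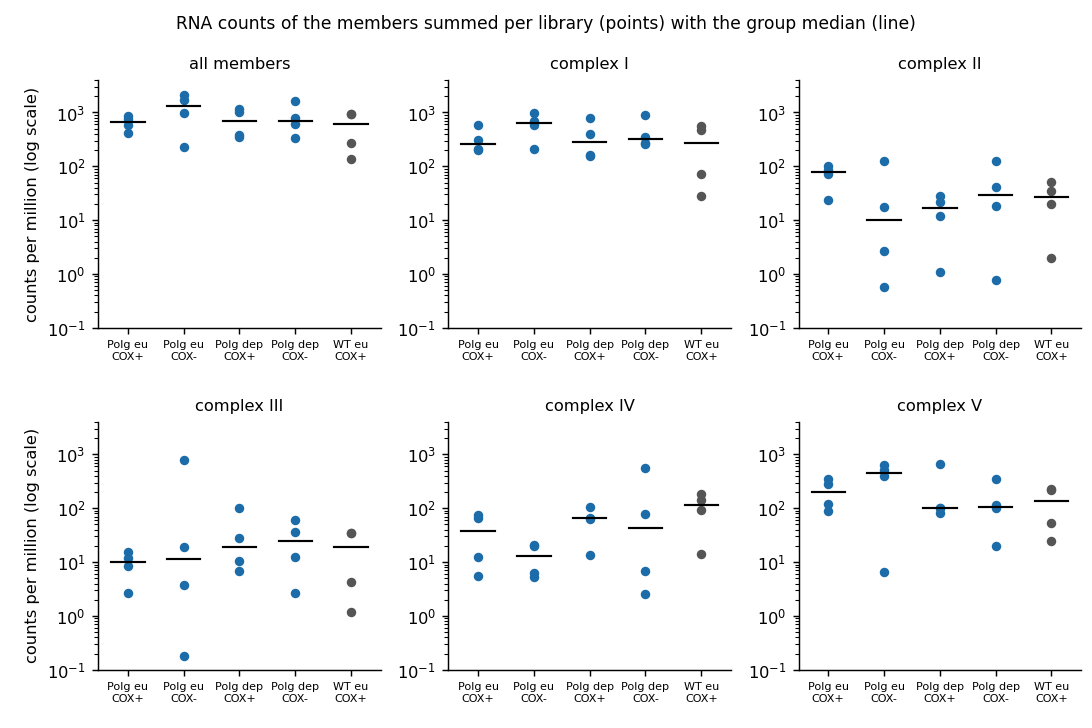
Counts of all members and of each complex summed per RNA library (points, CPM of total counts, log scale on the y axis) by group (x axis, 4 libraries each), with a line at the group median. Every panel shows overlap of all mutant groups with WT eu COX+. In complexes II, III and IV libraries of 1 group differ by over a factor of 100 (0.579 to 124 and 0.177 to 782 in Polg eu COX-, and 2.56 to 566 in Polg dep COX-).

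Summed by complex, no group stood apart from WT. Complex I had 200 to 578 CPM in Polg eu COX+, 213 to 995 in Polg eu COX-, 155 to 801 in Polg dep COX+, 263 to 903 in Polg dep COX- and 27.6 to 557 in WT. Complex IV, the enzyme whose staining defined the classes, had 5.52 to 76.0 in Polg eu COX+, 5.34 to 20.5 in Polg eu COX-, 13.4 to 104 in Polg dep COX+, 2.56 to 566 in Polg dep COX- and 14.0 to 182 in WT. The COX- libraries overlapped the COX+ libraries of the same state in both. Complex V had 87.3 to 355, 6.62 to 628, 81.9 to 657, 19.7 to 348 and 25.1 to 230.0 in the same order of groups. Fewer reads from a cell type and less RNA per cell cannot be told apart in these bulk libraries.

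For RNA, 76 of the 92 members passed edgeR's filter on low counts, and the 16 others were 6 of complex I (Ndufa2, Ndufa4l2, Ndufa6, Ndufaf3, Ndufaf8, Ndufb4c), 7 of complex IV (Cox6a1, Cox6a2, Cox6b2, Cox7a1, Cox7c, Cox8b, Cox8c) and 3 of complex V (Atp5e, Atp5k, Atp5mpl). Between Polg eu COX+ and WT eu COX+, edgeR called 0 of the 76 and 0 of all 28446 genes (0.0%), with 10 members at an unadjusted p under 0.05 (13.2% of members, against 15.3% of all genes). DESeq2 gave an adjusted p to 35 members and called 1 of them, where it called 5.82% of the 20002 genes given one. Members' median log2 fold change was -0.21, against -0.01 over all genes, with a median SE of 1.69. Under DESeq2's size factors both medians turned positive, 0.10 for members and 0.19 for all genes. The smallest p belonged to Cox5b, a zinc-binding COX subunit, with 0, 0, 0 and 0.485 CPM in Polg eu COX+ and 0.127, 0.189, 0.834 and 498 in WT. A single WT library thus set its log2 fold change of -9.95 ± 2.62 (adjusted p 0.187). Atp5j, a stalk subunit, was alike, with 0 to 0.329 CPM in Polg eu COX+ and 0.219, 0.221, 0.647 and 146 in WT (-8.18 ± 2.29, adjusted p 0.193). For Ndufa8 (6.57 ± 2.43, adjusted p 0.234) the high library was in Polg eu COX+, at 94.8 CPM. Uqcr10 and Sdhc had the smallest p of complexes III and II (-2.35 ± 1.65 and 2.11 ± 1.61).

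COX- was compared with COX+ within each state. In euthymic mutants edgeR called 0 of 76 members and 0 of all genes (0.0%), with 22 members at an unadjusted p under 0.05 (28.9% of members, against 21.2% of all genes). DESeq2 called 4 of the 36 members that it gave an adjusted p (10.3% of all genes). In depressive mutants edgeR again called 0 (0.0%), with 23 members at an unadjusted p under 0.05 (30.3% of members, against 19.9% of all genes). DESeq2 called 4 of 34 members, all lower (10.7% of all genes, 5.42% lower). Medians over members and over all genes were 0.08 and -0.10 in euthymic and -0.09 and -0.03 in depressive mutants. Averaged over state, 0 members passed in edgeR (0.0% of all genes), with 22 at an unadjusted p under 0.05 (28.9% of members, against 22.8% of all genes), and 5 of 37 in DESeq2 (10.3%). The closest was Ndufs4, an accessory subunit needed for complex I stability, with 1.94, 2.68, 3.50 and 8.12 CPM in Polg eu COX- and 16.8, 20.7, 35.4 and 55.2 in Polg eu COX+. In depressive mutants it had 2.47, 2.95, 5.84 and 7.60 in COX- and 1.41, 4.66, 47.1 and 667 in COX+. The euthymic classes did not overlap and the depressive ones did. Its averaged log2 fold change was -4.12 ± 1.07 (adjusted p 0.0538 in edgeR and 0.000790 in DESeq2). WT libraries had 4.45, 8.80, 11.7 and 21.1 CPM, overlapping both euthymic classes.

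Several other named members had 1 library far above the rest. Ndufc1 in euthymic mutants had 0.0302, 0.0541, 0.353 and 367 CPM in COX- and 0 to 0.504 in COX+ (8.82 ± 2.54, adjusted p 0.123), and Uqcrc1 0.224, 0.229, 2.79 and 385 in COX- and 0.197 to 0.751 in COX+ (7.70 ± 2.38, 0.123). Cox4i1 averaged over state had 1 COX- library at 275 CPM and all 15 other mutant libraries at 4.64 or less (5.82 ± 1.67, adjusted p 0.0585). Among complex II genes, Sdhb had 1.32, 1.46, 2.39 and 90.7 CPM in Polg eu COX- and 0.162, 0.329, 0.861 and 4.18 in Polg eu COX+ (4.11 ± 1.71, 0.171). Atp5g3 had the opposite sign, with 0 to 0.0353 in Polg eu COX- and 0, 0.0219, 1.92 and 4.72 in Polg eu COX+ (-6.90 ± 2.34, 0.127). Cox4i2 had 0.0353 to 0.121 in Polg eu COX- and 0.153 to 1.60 in Polg eu COX+ (-3.20 ± 1.43, 0.195), groups that did not overlap. In depressive mutants the named genes were Ndufa3 (-8.16 ± 2.27), Uqcr10 (-6.84 ± 2.01), Cox7a2 (6.80 ± 2.08), each with an adjusted p of 0.132, Atp5a1 (6.05 ± 2.19, 0.142) and Sdhc (3.39 ± 1.70, 0.259). The difference between the COX effects of the 2 states, tested as an interaction added after the data were seen, passed for 0 members and 0 of all 28446 genes in edgeR.

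Depressive and euthymic mutants gave the only member that edgeR called in RNA. Averaged over COX class, edgeR called 354 of 28446 genes (1.24%, of which 0.64% lower) and 1 of 76 members, which was lower, with 30 members at an unadjusted p under 0.05 (39.5% of members, against 22.2% of all genes). DESeq2 called 7 of the 36 members that it gave an adjusted p (10.4% of all genes). The member that edgeR called was Ndufa11, with 0, 0.0362, 0.105 and 0.110 CPM in Polg dep COX+ and 0, 0.0478, 0.105 and 0.165 in Polg dep COX-. The euthymic libraries had 0.0897, 0.110, 1.2 and 53.7 in Polg eu COX+ and 0, 0.0177, 0.189 and 3.47 in Polg eu COX-, and WT had 0.0576 to 0.639. Both states thus overlapped and all depressive libraries lay near 0. The log2 fold change was -5.64 ± 1.49 (adjusted p 0.0498). Leaving out any 1 of the 16 mutant libraries ended the call, with adjusted p-values of 0.0578 to 0.140, and without the highest library the fold change was -2.96. Each of these 16 fits called 0 of all genes, so the loss covered all 354 calls and was not particular to Ndufa11. In the full fit the smallest adjusted p of any gene was 0.0485. DESeq2 gave Ndufa11 no adjusted p.

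Within COX+ libraries edgeR called 0 members and 0 of all genes (0.0%), with 18 members at an unadjusted p under 0.05 (23.7% of members, against 17.5% of all genes). DESeq2 called 5 of the 38 members that it gave an adjusted p (8.1% of all genes). Within COX- libraries edgeR called 0 (0.0%), with 32 members at an unadjusted p under 0.05 (42.1% of members, against 22.6% of all genes). DESeq2 called 6 of 33 members (14.2% of all genes). Medians over members and over all genes were 0.25 and -0.05 in COX+, -0.44 and -0.12 in COX-, and 0.10 and -0.06 averaged. Cox5a, the subunit at the matrix face of COX, had 2.74, 8.70, 16.6 and 29.7 CPM in Polg dep COX+ and 0.0462, 0.339, 0.351 and 1.31 in Polg eu COX+, groups that did not overlap. Its log2 fold change was 4.82 ± 1.54, with an adjusted p of 0.140 in edgeR and 0.000631 in DESeq2. WT libraries of Cox5a had 0.484, 0.568, 1.69 and 5.40 CPM, overlapping both. Ndufa3 (8.03 ± 2.25, adjusted p 0.136), Uqcr10 (7.15 ± 2.04, 0.136), Atp5g3 (-7.41 ± 2.34, 0.140) and Sdhc (-3.42 ± 1.70, 0.291) completed the named genes of COX+. In COX- they were Ndufaf6, with 0.495 to 0.858 CPM in Polg dep COX- and 0.298, 5.19, 158 and 257 in Polg eu COX- (-7.38 ± 1.99, adjusted p 0.0862), Uqcrfs1 (7.34 ± 2.15, 0.0862), Atp5a1 (7.27 ± 2.32, 0.0868), Cox7a2 (6.36 ± 2.04, 0.0872) and Sdhb (-3.94 ± 1.70, 0.161). These comparisons share libraries, so their calls are not independent of each other.

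Of the complex II genes in RNA, Sdhc and Sdha had the highest medians. Sdha had 0.920 to 62.5 CPM in Polg eu COX+, 0.149 to 7.18 in Polg eu COX-, 0.434 to 27 in Polg dep COX+, 0.311 to 22.8 in Polg dep COX- and 0.284 to 11.9 in WT. Sdhc had 1.46 to 95.1, 0.812 to 8.21, 0.563 to 9.73, 0.407 to 97.3 and 0.994 to 26.4 in the same order. Sdhd never passed 1.44 CPM. All mutant groups overlapped WT for each of the 4 genes.

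Across regions, 27 members had gene-end peaks in all 4 H3K27ac tables and could be compared, 14 of complex I, 1 each of complexes II and III (Sdhc and Uqcrfs1), 3 of complex IV (Cox6c, Cox7a2l, Cox7c) and 8 of complex V. Their values are CPM of the summed gene-end peaks among the 5029 genes with such peaks everywhere. The 16 libraries entered 1 model, and the labels do not say whether regions came from the same animals. Averaged over regions, Polg against WT passed at 0 of 27 members, where edgeR called 10 of 5029 genes (0.199%), with 2 members at an unadjusted p under 0.05 (7.41%, against 10.9% of all genes) and 2 called by DESeq2 (12.8%). The smallest p were those of Atp5j2 (3.38 ± 0.86, adjusted p 0.143) and Ndufv3 (-6.79 ± 1.76, 0.152). Cox6c (0.96 ± 1.12), Sdhc (0.25 ± 0.49) and Uqcrfs1 (0.53 ± 1.16) stood for the other complexes. Whether the genotype effect differed between regions, a test added after the data were seen, passed for 0 of 27 members, where it called 12 of 5029 genes.

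Between regions 3 members passed in edgeR. PVT against COR passed at 0 of 27 (70 of 5029 genes, 1.39%), with 2 members at an unadjusted p under 0.05 (7.41%, against 11.3%) and 2 called by DESeq2 (8.81%). Its smallest p were those of Ndufb9 (3.33 ± 0.93, adjusted p 0.110), Atp5g2 (1.07 ± 0.51), Uqcrfs1 (2.00 ± 1.70), Cox7c (-1.01 ± 1.34) and Sdhc (0.02 ± 0.69). PVT against striatum (the mean of CP and NAC) passed at 1 of 27, higher in PVT (7.12% of all genes, 5.23% higher), with 5 members at an unadjusted p under 0.05 (18.5%, against 21.0%) and 5 called by DESeq2 (22.4%). COR against striatum passed at 0 (2.96%), with 3 members at an unadjusted p under 0.05 (11.1%, against 18.2%) and 4 called by DESeq2 (20%). There the smallest p were those of Ndufb9 (-3.01 ± 0.87, adjusted p 0.0762), Atp5j2 (3.21 ± 0.93, 0.0813), Uqcrfs1 (-3.32 ± 1.69), Cox7a2l (-1.36 ± 0.71) and Sdhc (-0.32 ± 0.61). CP against NAC passed at 2, both lower in CP (4.0% of all genes, 3.4% lower), with 4 members at an unadjusted p under 0.05 (14.8%, against 17.7%) and 4 called by DESeq2 (18.8%).

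Atp5b was the member called between PVT and striatum. In PVT it had 427 and 497 CPM in Polg and 393 and 653 in WT. In CP it had 187 and 243 in Polg and 572 and 0 in WT, and in NAC 25 and 35.2 in Polg and 0.799 and 0 in WT. PVT values lay above all NAC values and overlapped 1 CP library. The log2 fold change was 3.94 ± 1.10 (adjusted p 0.0482), but the length called as peak was 7178 bp in PVT, 1548 bp in CP and 314 bp in NAC. Per kb of peak it was 0.59 with an adjusted p of 0.978. The peaks also differ in place: the CP peak lies at the gene start, the NAC peak lies 836 bp from the other gene end and near Baz2a too, and PVT has a peak of 2049 bp at the start and another of 5129 bp near the other end and Baz2a. The NAC values are thus of another element than the CP values. The call was kept in 2 of 12 fits that left out 1 library, with log2 fold changes of 3.70 to 7.5 and adjusted p-values of 0.000146 to 0.152.

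Atp5j2, an ATP synthase membrane subunit whose promoter with its YY1 match is shown above, had 26.9 and 90.0 CPM in CP in Polg and 0 in both WT libraries. In NAC it had 149 and 115 in Polg and 72.4 and 96.7 in WT. The highest CP value thus overlapped the NAC range. Its log2 fold change, CP over NAC, was -6.86 ± 1.45 (adjusted p 0.0243), which with 2 CP libraries at 0 depends on the prior count and is no measure of size. Per kb it was -6.68 with an adjusted p of 0.148, and the call was kept in 6 of 8 fits that left out 1 library (adjusted p 0.00949 to 0.0563). Ndufs4, the other promoter with a YY1 match shown, had 1.28 and 0 CPM in CP in Polg and 26.7 and 4.22 in WT. In NAC it had 155 and 73.2 in Polg and 156 and 378 in WT, so the regions did not overlap. Its log2 fold change was -5.97 ± 1.48 (adjusted p 0.0389), and its peak was 250 bp long in CP, 832 bp from the gene start, and 1204 bp at the start in NAC. Per kb the fold change was -3.72 with an adjusted p of 0.308, and the call was kept in 4 of 8 fits that left out 1 library (adjusted p 0.00979 to 0.0900). Over the 27 members the median peak length was 2338 bp in PVT, 1599 in COR, 870 in CP and 1293 in NAC, against 2355, 2065, 982 and 1795 over all 5029 genes.

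**Figure D5:**
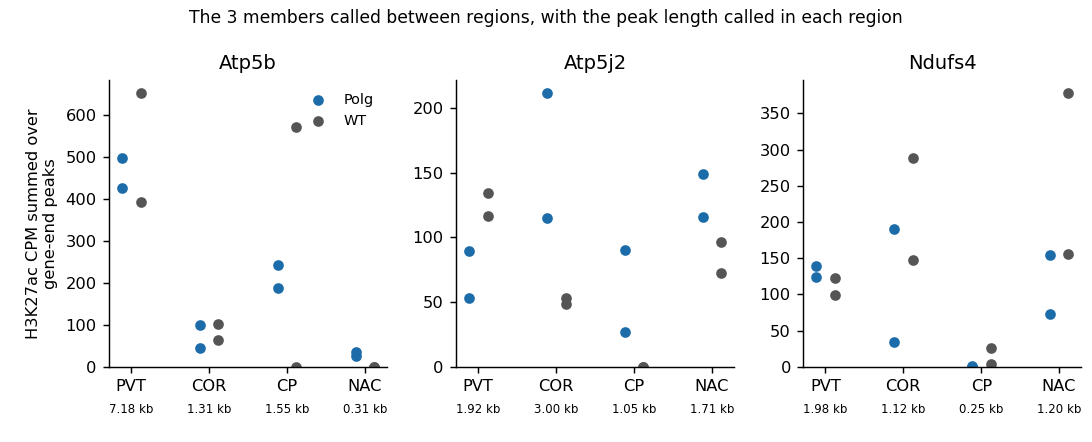
H3K27ac CPM summed over gene-end peaks (y axis) of the 3 members called between regions, by region (x axis, with the length called as peak under each), for 2 Polg and 2 WT libraries per region. Ndufs4 lies lower in CP than in NAC in all libraries, while Atp5b is highest where its called peak is longest and Atp5j2 has both WT libraries at 0 in CP.

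Among genes around the chain that the rule leaves out, Uqcc2 and Fh1 passed a test. Over the 17 comparisons in edgeR, the list of electron carriers and assembly factors outside the rule had 0 members higher and 2 calls lower, both of Uqcc2, a complex III assembly factor. Uqcc2 was lower in PVT than in COR (-2.69, adjusted p 0.0499) and lower in PVT than in striatum (-2.06, adjusted p 0.0396). It was the 1 gene called of 14 from this list tested in each comparison, where 1.39% and 7.12% of all genes passed. Per kb of peak edgeR called 0 of 5029 genes in either comparison, so both calls ended. The tricarboxylic acid cycle list had 1 call, Fh1 (fumarase), lower in CP than in NAC (-7.40, adjusted p 0.0453), a comparison in which 3 of 5029 genes passed per kb. In the main fit of that comparison 7 genes of the list were tested, and 4.0% of all genes passed. The list of regulators of nuclear respiratory genes had 0 in either direction.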

How the data were processed

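Total RNA of PVT, ATAC-seq of PVT and H3K27ac ChIP-seq of 4 regions were analysed from tables of raw read counts per gene or peak, deposited by the authors. Per the submitters' processing notes the tools were STAR, HOMER, featureCounts, Subread and DESeq2, on mm10; no source used here gives versions, strand or counted features. In each chromatin table all libraries share 1 peak set. The 4 input libraries were not used.

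The members and gene lists were chosen with earlier results of these data known. Peaks within 1 kb of a gene end were assigned by coordinate. Counts were tested with edgeR 4.0.16 (quasi-likelihood test, TMM scaling, filterByExpr, Benjamini-Hochberg adjustment over all features, threshold 0.05) in R 4.3.3. Standard errors were taken as the log2 fold change divided by the square root of F, an approximation. DESeq2 1.42.0, its size factors, no filter, other windows, per-kb values and leaving out libraries were alternatives; DESeq2's missing adjusted p-values stayed missing. RNA used 1 model of 5 groups, 1 model of genotype served each chromatin table, and 16 H3K27ac libraries 1 model of region and genotype over genes with peaks in all 4 regions. The fits were tested on simulated data. The members named for a comparison were chosen from those with the smallest p of each complex, or, where any passed, are those that passed. For genotype in CP and NAC, the Results name the member of smallest p alone. Columns of the RNA table carry a group and no replicate label. CPM are TMM-scaled, except that CPM of summed members use total counts. Values of 1 member are not reported here by name.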

Additional observations from a re-analysis of the deposited data

Results flagged for a closer look

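In 22 of 80 sets of 4 RNA libraries the highest library stood far from the other 3 (Dixon's test at 95%; chance flags about 1 in 20 groups, and the sets share libraries). Among complex sums, in CPM of total counts, these were complex II at 124 and complex III at 782 in Polg eu COX-, complex V at 657 in Polg dep COX+, and complex I at 903 and complex IV at 566 in Polg dep COX-.

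Among complex II genes, Sdha stood out at 62.5 CPM in Polg eu COX+, 7.18 in Polg eu COX- and 22.8 in Polg dep COX-. Sdhb did so at 90.7 CPM in Polg eu COX-, Sdhc at 8.21 in Polg eu COX- and 26.4 in WT eu COX+, and Sdhd at 0.951 in Polg dep COX+ and 1.44 in WT eu COX+. Of complex I, Ndufs4 reached 667 CPM and Ndufa3 39.1 in Polg dep COX+, and Ndufc1 367 in Polg eu COX-. Ndufa11 reached 53.7 CPM in Polg eu COX+ and 3.47 in Polg eu COX-, and Ndufaf6 6.16 in Polg eu COX+ and 22 in WT eu COX+. Cox5b of complex IV reached 0.485 CPM in Polg eu COX+ and 498 in WT eu COX+.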

How the results depend on the processing

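Counts of called members depended on the tool. DESeq2 called 1 member for Polg eu COX+ against WT, 4 and 4 for COX- against COX+ in euthymic and depressive mutants, 5 and 6 for depressive against euthymic in COX+ and COX-, and 5 and 7 for the averaged COX and state comparisons. In these RNA comparisons it gave an adjusted p to only 33 to 38 members. It called 4 in PVT, 8 in COR, 11 in CP and 2 in NAC between genotypes, 2 over the 4 regions, and 2, 5, 4 and 4 for PVT against COR, PVT against striatum, COR against striatum and CP against NAC. With every gene kept, whatever its count, edgeR called 1 (COX, euthymic), 6 (state, COX-), 5 (COX, averaged) and 8 (state, averaged), where it called 458, 1170, 1628 and 1887 of all 50926 genes. DESeq2's size factors gave 4 for the averaged state comparison (780 of 28446 genes) and 3 for PVT against striatum (453 of 5029 genes). A fit of the contrast's groups alone gave 0 for the averaged state comparison (0 of 25930 genes). In 9 of the 17 comparisons these size factors moved the median over all features by over 0.1: to 0.19 in Polg against WT RNA, 0.06 and 0.18 in COX, euthymic and depressive, 0.00 in state, COX-, 0.14 in COX, averaged, 0.80 in CP, 1.28 in NAC, 0.65 in PVT against striatum and 0.46 in COR against striatum. Per kb of peak, 0 members passed for PVT against striatum and 0 for CP against NAC (0 and 3 of 5029 genes). A window of 0 bp left 1 of 10 members for CP against NAC, where 60 of 1499 genes passed. The cause of these shifts was not tested.

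Chromatin libraries share replicate numbers across genotypes, but same-numbered libraries did not deviate together (correlations of -0.0514 in ATAC and -0.0124, 0.0168, -0.0267 and -0.0443 in PVT, COR, CP and NAC). The main fits therefore used no pairing. With 2 libraries per genotype this cannot tell whether same-numbered libraries were prepared together. With a replicate block, 0 members passed for PVT against striatum and 1 for CP against NAC (260 and 160 of 5029 genes). Atp5b (adjusted p 0.136), Atp5j2 (0.0886) and Ndufs4 (0.0539) lost their calls, so the 1 member is another. For RNA, No paired analysis was possible because its columns carry no replicate number.

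Leaving out 1 library gave 0 to 0 called members for the averaged state comparison, 0 to 3 in CP, 0 to 1 in NAC, 0 to 8 over the 4 regions, and 0 to 7 each for PVT against striatum, COR against striatum and CP against NAC. The highest counts came without the first CP WT library, with 5436 of 100326 peaks called in CP and 1027, 1656, 1513 and 1553 of 5029 genes in the 4 region comparisons named, and in NAC without the second Polg library. Leaving out the second WT libraries of CP and NAC together, chosen after seeing the data, gave 2, 3 and 2 for PVT against COR, PVT against striatum and COR against striatum (378, 762 and 602 of 5029 genes). For CP against NAC it gave 2, 1 higher and 1 lower (377 of 5029 genes), with Ndufs4 no longer called (adjusted p 0.0792). Of members named without passing, log2 fold changes crossed 0 between leave-outs for Uqcr10 in Polg against WT (-2.85 to 0.21), Ndufc1 in COX, euthymic (-0.45 to 9.80), Atp5a1 in COX, depressive (-1.10 to 8.93), Cox7a2 in state, COX- (-0.22 to 6.76), Sdha in COR (-12.92 to 2.57), Cox4i1 in CP (-10.45 to 11.99), Sdhb in NAC (-0.56 to 3.81), and Sdhc in PVT against COR (-0.25 to 0.37) and COR against striatum (-0.63 to 0.17). Per kb, Atp5g2 (-0.36) and Sdhc (-0.29) in PVT against COR and Sdhc (0.0203) in COR against striatum changed sign, and Sdhc did so with a window of 0 bp (-0.11). Spread limited every table, and ATAC least, with a median SE of 0.37 there and 3.99 in CP. Even in ATAC, Ndufs7 at -0.94 ± 0.41 had an adjusted p of 0.798 in edgeR. Differences near 2-fold could thus be missed in ATAC, and differences well beyond 2-fold in CP.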
